A study of Mus musculus with 3 samples.

Results

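The genes described here make cholesterol from acetyl units, sense the sterol content of the cell, and take up, esterify or move cholesterol. They were named one by one as 31 gene symbols, all of which were found among the 24346 symbols of the files, with isoform FPKM (fragments scaled to transcript length and to the mapped fragments of a file) summed per symbol. The RNA is polyadenylated RNA from the distal colon of wild-type mice aged 8 weeks, labelled as strain JAX and as steady-state, and the tissue was rinsed and flash-frozen before extraction. The 3 labelled libraries form 1 group, so no condition is compared with another. No source used here says that they came from separate animals, and the names of the 3 deposited files carry the same index and lane.

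Cholesterol synthesis starts in the cytosol, where acetyl-CoA is joined to HMG-CoA and reduced to mevalonate. Phosphorylation and decarboxylation then give the isoprenoid units that also feed protein prenylation, dolichol and ubiquinone. Squalene is built from these units, closed to lanosterol and trimmed to cholesterol in the endoplasmic reticulum. The pathway is known for control by SREBP transcription factors, which SCAP escorts to the Golgi for cleavage when sterols are low and which INSIG proteins hold back when sterols are high. In the intestine, absorption of dietary and biliary sterol is known as a task of the small bowel, while colonocytes and crypt cells also make their own.

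SREBP acts at short sterol elements and E-boxes, often beside boxes for NF-Y, a general promoter factor, so the promoters of 5 members are shown with those letters marked. They are the members with the highest levels (Hmgcs1 and Msmo1), the sterol sensor gene Insig1, and the isomerase pair Idi1 and Idi2, of which only Idi1 was detected. Each run is the 250 bases before the RefSeq start on GRCm38.p6, 5′ to 3′ on the strand of the gene. Capitals mark CACNCCAC, CACGTG and CCAAT on either strand. The runs lie at chr13:119690101-119690350 on the plus strand (Hmgcs1), chr8:64733579-64733828 on the minus strand (Msmo1), chr5:28071162-28071411 on the plus strand (Insig1), chr13:8885356-8885605 on the plus strand (Idi1) and chr13:8952613-8952862 on the plus strand (Idi2).
Hmgcs1: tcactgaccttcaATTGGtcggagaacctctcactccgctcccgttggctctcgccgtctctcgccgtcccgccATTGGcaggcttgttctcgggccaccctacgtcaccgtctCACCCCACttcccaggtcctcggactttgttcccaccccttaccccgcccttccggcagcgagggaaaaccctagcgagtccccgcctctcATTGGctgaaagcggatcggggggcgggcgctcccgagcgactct
Msmo1: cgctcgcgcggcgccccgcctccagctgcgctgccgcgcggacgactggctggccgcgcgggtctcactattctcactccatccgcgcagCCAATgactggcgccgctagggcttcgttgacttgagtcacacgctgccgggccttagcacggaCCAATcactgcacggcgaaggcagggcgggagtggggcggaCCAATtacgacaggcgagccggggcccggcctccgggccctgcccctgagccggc
Insig1: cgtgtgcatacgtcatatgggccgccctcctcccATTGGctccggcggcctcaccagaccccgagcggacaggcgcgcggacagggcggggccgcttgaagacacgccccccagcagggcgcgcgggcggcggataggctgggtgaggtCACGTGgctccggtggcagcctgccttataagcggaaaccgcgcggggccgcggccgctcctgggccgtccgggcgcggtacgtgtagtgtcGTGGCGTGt
Idi1: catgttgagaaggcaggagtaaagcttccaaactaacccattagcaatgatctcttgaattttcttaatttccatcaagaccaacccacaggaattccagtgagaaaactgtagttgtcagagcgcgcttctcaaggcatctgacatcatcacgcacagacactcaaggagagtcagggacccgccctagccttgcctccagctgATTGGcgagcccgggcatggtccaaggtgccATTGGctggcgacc
Idi2: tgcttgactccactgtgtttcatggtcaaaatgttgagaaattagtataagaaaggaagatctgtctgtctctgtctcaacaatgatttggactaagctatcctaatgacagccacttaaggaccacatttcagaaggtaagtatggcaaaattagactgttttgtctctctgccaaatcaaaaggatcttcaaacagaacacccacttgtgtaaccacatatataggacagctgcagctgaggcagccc

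The files hold FPKM and its confidence bounds but no counts. From the bounds, replicates 1, 2 and 3 held 3.78e+06, 3.79e+06 and 1.24e+06 mapped fragments. Of the 90 member values above 0, 87 came out within 0.1 of a whole number of fragments at these depths, so the number of fragments behind each level can be given. Read from their own bounds, some members had fewer, such as Fdft1 (826 against 982) and Srebf1 (585 against 661). The counting error given for such members may thus be too small. A chi-square test of the 3 values of each gene against their sampling variance was run on 8771 single-isoform genes at 1 FPKM or more. It called 5 genes (0.0570%) at an adjusted p under 0.05 (Benjamini-Hochberg), and 0 of the 20 members tested, of which 1 had an unadjusted p under 0.05 against 4.93% of the genes tested. Over all genes tested, the calls numbered 2 without replicate 1, 2 without replicate 2 and 14 with sampling variances taken from the fitted depth. Since most genes differed by no more than the sampling noise, the files were counted as 1 sample. Every SD below is over the 3 files and measures only the spread between them, which may be technical. For 19 of the 30 members above 0 it was at or below the counting error, so it can understate the error of a level.

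Most members were transcribed in the distal colon, and the synthesis enzymes had the highest median. A mean of 1 FPKM or more was reached by 28 of 31 members, against 51.9% of all genes, and each of the 28 was also above 1 FPKM in every file. A mean of 10 FPKM or more was reached by 24 members, against 23.3% of all genes, and 100 FPKM by Hmgcs1 alone, against 2.59%. The median of the 31 members was 18.2 ± 0.154 FPKM, beside 1.25 FPKM over all genes and 4.78 FPKM over genes above 0. Together the members held 0.207% ± 0.00346 of the summed FPKM. The 20 synthesis enzymes had a median of 24.98 ± 1.39 FPKM, the 6 regulators of 17.0 ± 0.739 FPKM, and the 5 genes of uptake, esterification and transfer of 8.03 ± 0.609 FPKM.

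**Figure D1:**
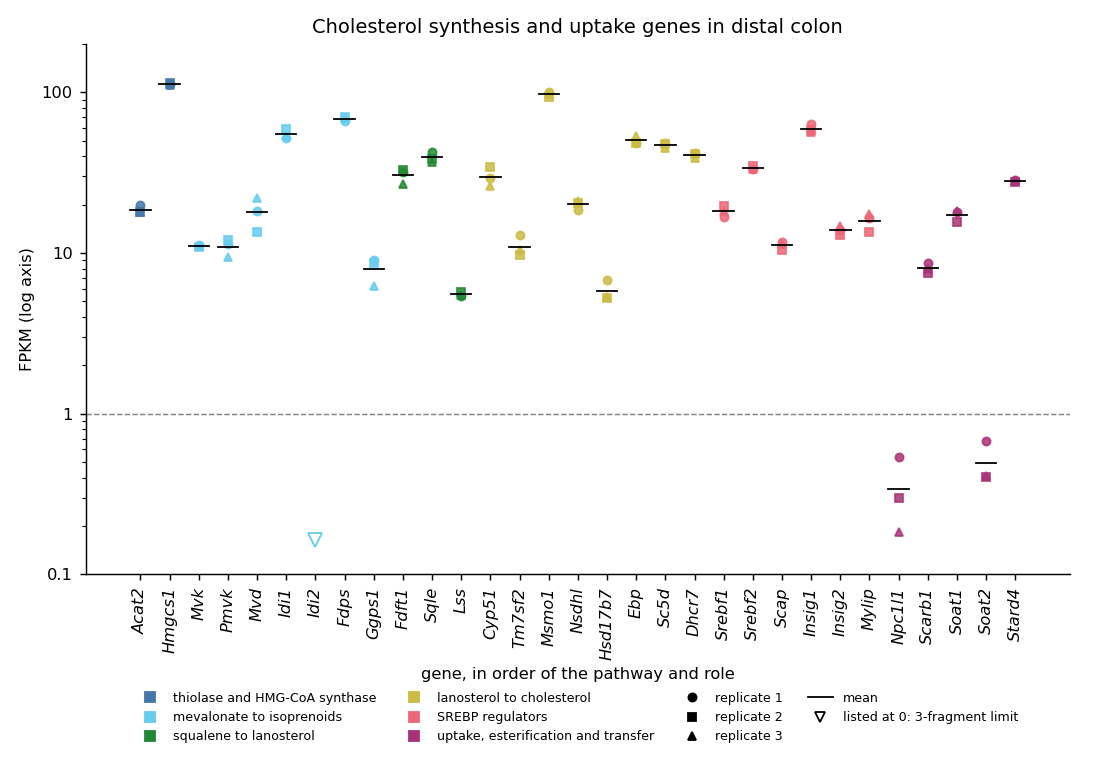
FPKM of each member on a log axis, in order of the pathway and role, with 1 symbol for each of the 3 replicates, a black line for the mean and a dashed line at 1 FPKM. Hmgcs1 (113 FPKM) and Msmo1 (97.4 FPKM) are highest, and Npc1l1, Soat2 and Idi2 lie under 1 FPKM, Idi2 as an open triangle at the limit that 3 fragments would make.

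**Figure D2:**
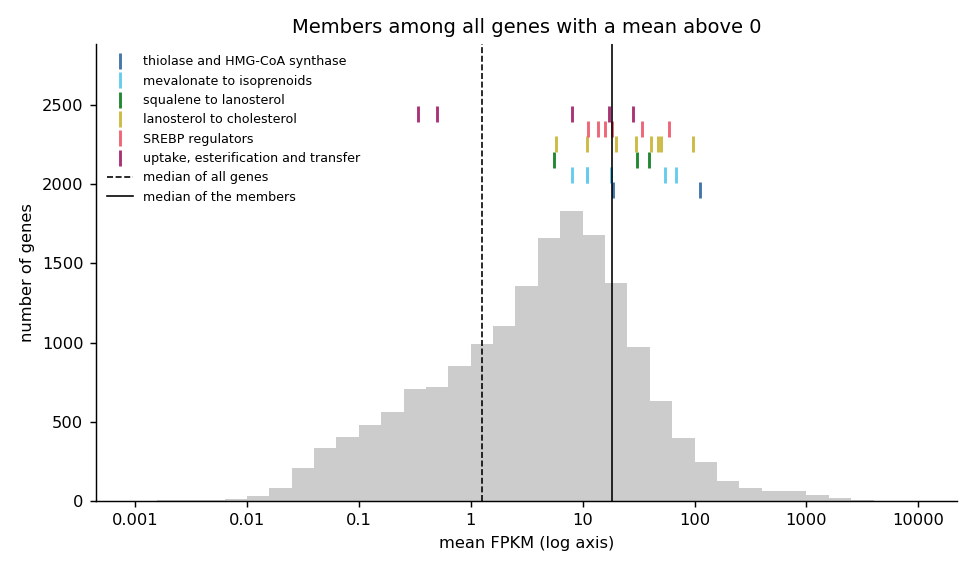
Number of genes by mean FPKM (log axis, genes above 0), with a coloured tick for each member above 0 and 1 row of ticks for each role. The median of all 24346 genes (dashed, 1.25 FPKM) lies left of the median of the members (solid, 18.2 FPKM), and 2 ticks, both of the uptake group, lie under 1 FPKM.

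The entry of the pathway held its highest gene. Hmgcs1, the synthase that makes HMG-CoA, stood at 112, 115 and 111 FPKM in replicates 1, 2 and 3, a mean of 113 ± 1.93 FPKM from 3361 fragments (chromosome 13, 119690351 to 119708260 on GRCm38). The 3 values lay close together, with an SD of 1.71% of the mean, under the 3.41% per file from counting error. The gene was at the 97.7th percentile of all genes. A stretch of 13.3% of an Hmgcs1 transcript matches the predicted gene Gm48342 at 100% identity, so its level may hold fragments of that copy or lose some to it. Acat2, the cytosolic thiolase that joins acetyl units (and not the sterol esterifying enzyme of the same alias), stood at 19.8, 18.0 and 18.1 FPKM, a mean of 18.6 ± 1.01 FPKM. Its level is uncertain, because 65.6% of the transcript (1477 bases at 97.7% identity) matches the neighbouring thiolase gene Acat3, itself listed at 16.1 FPKM, and another 445 bases match Tcp1.

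From mevalonate to the isoprenoids, the kinases and the decarboxylase stood under Idi1 and Fdps in every file. Mvk, the mevalonate kinase, stood at 11.1, 10.9 and 11.0 FPKM, a mean of 11.0 ± 0.134 FPKM. Pmvk, the kinase that follows it, stood at 11.4, 12.1 and 9.40 FPKM, a mean of 11.0 ± 1.40 FPKM that overlaps the range of Mvk. Mvd, the decarboxylase, stood at 18.1, 13.6 and 22.0 FPKM, a mean of 17.9 ± 4.22 FPKM. Replicate 2 was its lowest value and replicate 3 its highest, and with an SD of 23.6% of the mean it varied most among the members above 1 FPKM. With isoform variances added over 12629 genes, its unadjusted p was 0.0327 and its adjusted p 1.00 (chi-square test).

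Idi1, the isomerase that makes the reactive isoprenoid unit, stood at 51.8, 59.3 and 53.2 FPKM, a mean of 54.8 ± 3.99 FPKM (chromosome 13, 8885606 to 8892396). Its paralog Idi2, known as the isomerase of skeletal muscle, lies beside it (chromosome 13, 8952863 to 8960935) and was listed at 0 in every file. Counting error allows Idi2 up to 0.164 FPKM, the level that 3 fragments over the 3 files would make, so Idi1 was at least 335-fold higher; this bound was 183-fold without replicate 2 and 196-fold without replicate 1, where fewer fragments set it. The bound covers counting error only, and 858 bases of Idi2 (38.1% of the transcript) match the predicted gene Gm9745 at 99.4% identity, so fragments of Idi2 lost to that copy would lower it. In the promoter runs above, Idi1 holds 2 CCAAT boxes and Idi2 none of the marked motifs.

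Fdps, which joins the units to farnesyl diphosphate, was the highest gene of this stage at 66.6, 70.6 and 69.0 FPKM, a mean of 68.7 ± 2.03 FPKM. A stretch of 76.8% of an Fdps transcript matches the predicted gene Gm3571 at 98.9% identity, and 22.6% of an Idi1 transcript matches Gm13502, so both levels may hold fragments of the copies or lose some to them. Ggps1, which draws farnesyl diphosphate off towards protein prenylation, stood at 9.10, 8.62 and 6.19 FPKM, a mean of 7.97 ± 1.56 FPKM. Every value of Ggps1 was under every value of Fdps. Of a Ggps1 transcript, 21.3% matches the predicted gene Gm5630 at 97.2% identity, which leaves the same uncertainty.

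The squalene enzymes were unequal. Sqle, the squalene epoxidase, stood at 42.6, 38.5 and 37.0 FPKM, a mean of 39.3 ± 2.88 FPKM. Fdft1, the squalene synthase that commits isoprenoids to sterols, stood at 31.7, 32.9 and 26.9 FPKM, a mean of 30.5 ± 3.21 FPKM. Of its transcript, 20.9% is identical to Ctsb (96.2 FPKM), a neighbour on the opposite strand whose fragments cannot be told apart there without strand. A stretch of 33.8% of an Fdft1 transcript also matches the predicted gene Gm6781 at 97.4% identity. Lss, the cyclase that closes the ring to lanosterol, stood at 5.40, 5.70 and 5.48 FPKM, a mean of 5.53 ± 0.153 FPKM from 301 fragments. With Hsd17b7, whose values it overlapped, it was by FPKM the lowest of the enzymes detected. FPKM divides by the listed length, 6329 bases for Lss and 4574 for Hsd17b7. In fragments both Lss and Hsd17b7 (229) were above Mvk (149). Whether transcripts of the listed lengths are the ones made in this tissue was not tested. Hmgcs1 was 20.4 ± 0.290 times as high as Lss per length. This SD can understate the error, since that of Lss, 2.77% of its mean, lay under the 11.4% per file from counting error.

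The 8 enzymes between lanosterol and cholesterol were all above 1 FPKM throughout, and their median was 35.3 ± 2.69 FPKM. Msmo1, the oxidase of the sterol methyl groups, stood at 101, 93.2 and 98.3 FPKM, a mean of 97.4 ± 3.82 FPKM (chromosome 8, 64718145 to 64733578), and no file brought it up to Hmgcs1. Cyp51, the lanosterol demethylase that acts before it, stood at 29.4, 34.3 and 26.1 FPKM, a mean of 29.9 ± 4.13 FPKM from 1145 fragments. Replicate 2 was highest and replicate 3 lowest, and Cyp51 was the member with an unadjusted p under 0.05 in the test between files (p = 0.00493, adjusted p = 0.782, chi-square with Benjamini-Hochberg adjustment).

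Tm7sf2, a sterol reductase that acts on the product of Cyp51, stood at 12.9, 9.65 and 10.4 FPKM, a mean of 11.0 ± 1.68 FPKM. A stretch of 532 bases is identical to its overlapping neighbour Vps51 (8.49 FPKM), so its level is uncertain. Nsdhl, the dehydrogenase that works with Msmo1, stood at 18.5, 20.5 and 21.1 FPKM, a mean of 20.04 ± 1.35 FPKM. Hsd17b7, the ketone reductase of the same cycle, was lower in every file at 6.78, 5.21 and 5.29 FPKM, a mean of 5.76 ± 0.882 FPKM. Enzymes that act in turn on the methyl groups thus differed in FPKM, Msmo1 being 17.1 ± 1.98 times as high as Hsd17b7 per listed length. The values of Ebp, Sc5d and Dhcr7, which act in turn on the ring double bonds, did not overlap. Between Ebp and Sc5d the gap was small beside the counting error of 1 file, an SD of 7.55% and 6.69% of their means. Ebp, the isomerase, had 48.7, 48.7 and 53.4 FPKM (mean 50.3 ± 2.73), and Sc5d, the desaturase, had 48.4, 47.8 and 44.7 FPKM (mean 47.0 ± 1.98). Dhcr7, the reductase, had 42.1, 41.3 and 38.8 FPKM (mean 40.7 ± 1.72).

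Ranked by level, the 31 members form 30 pairs of neighbours. In 18 of them the values of the 3 files overlapped, and in 12 they did not. This describes 3 files counted as 1 sample and tests no difference between genes. Srebf2 (lowest value 33.2 FPKM) and Fdft1 (highest 32.9 FPKM) did not overlap, for example. Counting error alone gives them an SD per file of 5.45% and 6.31% of their means. How often such pairs overlap over all genes was not computed. The pairs without overlap include Hmgcs1 over Msmo1, Msmo1 over Fdps and Fdps over Insig1. The run from Nsdhl (20.04 FPKM) through Acat2, Srebf1, Mvd, Soat1 and Mylip to Insig2 (13.8 FPKM) held no pair apart, nor did the run from Scap (11.1 FPKM) through Mvk and Tm7sf2 to Pmvk. At the bottom, Scarb1, Ggps1, Hsd17b7 and Lss (5.53 FPKM) also overlapped from neighbour to neighbour, above a wide step down to Soat2 (0.496 FPKM).

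**Figure D3:**
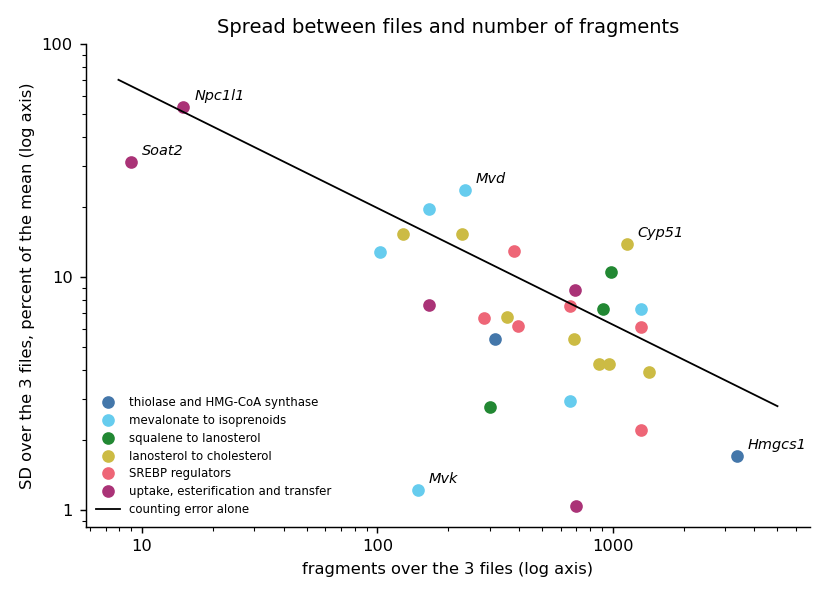
SD over the 3 files as a percent of the mean against the fragments behind each member (both axes log), coloured by role, with a line for the spread that counting error alone gives at these depths. Of 30 members above 0, 11 lie above the line and 19 at or below it, with a median ratio to the line of 0.691. Counting error alone also puts some genes above the line, and the share over all genes was not computed. Mvd (23.6%) and Cyp51 (13.8%) are among those above.

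All 6 regulators were above 10 FPKM. Srebf2, the SREBP gene known for sterol synthesis, stood at 33.4, 34.6 and 33.2 FPKM, a mean of 33.7 ± 0.746 FPKM (chromosome 15, 82147269 to 82204960). Srebf1, whose products are known above all for fatty acid synthesis, stood at 16.8, 19.5 and 18.3 FPKM, a mean of 18.2 ± 1.37 FPKM. Srebf2 was 1.86 ± 0.117 times as high as Srebf1, and the values of the pair did not overlap. The files list 1 isoform of Srebf1, so its alternative first exons were not separated here.

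Insig1, which retains SCAP and SREBP in the endoplasmic reticulum, was the highest regulator, at 63.2, 58.0 and 56.3 FPKM, a mean of 59.2 ± 3.61 FPKM (chromosome 5, 28071412 to 28078662). Its paralog Insig2 stood at 13.9, 12.9 and 14.7 FPKM, a mean of 13.8 ± 0.928 FPKM. Insig1 was 4.29 ± 0.401 times as high as Insig2, with every Insig1 value above every Insig2 value. Scap, the escort, had a mean of 11.1 ± 0.689 FPKM. Mylip, a ubiquitin ligase that sends lipoprotein receptors to degradation, stood at 16.5, 13.5 and 17.4 FPKM, a mean of 15.8 ± 2.04 FPKM.

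Of the 5 genes of uptake, esterification and transfer, Npc1l1 and Soat2 stayed under 1 FPKM in every file. Npc1l1, the sterol importer of the small bowel brush border, stood at 0.540, 0.300 and 0.182 FPKM, a mean of 0.341 ± 0.182 FPKM (chromosome 11, 6211011 to 6230245). These values rest on 9, 5 and 1 fragments, or 15 in all, for a pooled level of 0.386 FPKM with an exact Poisson 95% interval of 0.216 to 0.637 FPKM. Soat2, the sterol esterifying enzyme of small bowel and liver, stood at 0.674, 0.404 and 0.410 FPKM, a mean of 0.496 ± 0.154 FPKM. It rests on 5, 3 and 1 fragments, or 9 in all, for a pooled level of 0.521 FPKM with an interval of 0.238 to 0.988 FPKM. The intervals cover counting error only, and they overlap, so the order of this pair is not settled at this depth.

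Soat1, the esterifying enzyme of most other cells, stood at 18.1, 15.5 and 18.2 FPKM, a mean of 17.2 ± 1.52 FPKM, and was 36.5 ± 8.93 times as high as Soat2. Stard4, which carries cholesterol between membranes, was the highest and steadiest of the group at 28.3, 27.7 and 27.9 FPKM, a mean of 28.0 ± 0.293 FPKM. Scarb1, the receptor that takes sterol from high-density lipoprotein, stood at 8.68, 7.48 and 7.94 FPKM, a mean of 8.03 ± 0.609 FPKM. Its values overlapped those of Ggps1 and lay under all of those of Pmvk.

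The tissue label was set against lists of marker genes, since Npc1l1, Soat2 and Scarb1 are known from other tissues. All 10 colon epithelium markers were above 1 FPKM in every file (summed level 7573 to 7817 FPKM), as were all 5 smooth muscle markers (2381 to 2484 FPKM) and all 5 macrophage markers (170 to 180 FPKM). Of 9 small intestine enterocyte markers, 4 had a mean of 1 FPKM or more (summed 174 to 187 FPKM, led by Fabp6 at 95.6 FPKM and Fabp2 at 41.7 FPKM), while Lct stood at 0.0440 FPKM and Gata4 was listed at 0. Of 8 liver markers, 7 did (226 to 236 FPKM, led by Alb at 129 FPKM and Ttr at 60.7 FPKM), and Cyp7a1 stood at 0.133 FPKM. Of 5 adipocyte markers only Fabp4 did (19.5 to 34.4 FPKM for the list, with Lep listed at 0). None of 5 markers of steroid-making cells did (1.21 to 2.42 FPKM), and Cyp11b1 and Hsd3b1 were listed at 0. The part of these cells in the levels of Npc1l1, Soat2 and Scarb1 was not tested. In RNA of a whole tissue, fewer cells of a type and less RNA per cell cannot be told apart.

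More than 1 isoform was listed for 8 members, and the other 23 had 1 each. In all 8, 1 isoform held at least 50% of the mean level, as in 91.3% of 3858 genes with 2 or more isoforms at 1 FPKM or more, and in 4 of them at least 80%, against 44.8%. The leading isoform was the same in every file for 7 of the 8 and not for Scarb1; it was not the same in 37.9% of those genes. The longer Scarb1 isoform (2521 bases) stood at 8.35, 6.07 and 0.00109 FPKM, and an isoform of 2392 bases at 0.000139, 1.41 and 7.94 FPKM. The gene sum barely moved while 96.1% of it in replicate 1 and 0.0137% in replicate 3 went to the longer form. The sum rests on 165 fragments over the 3 files.

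Mvk, Hmgcs1 and Scap moved less between their isoforms than Scarb1. The leading Mvk isoform held 71.6%, 99.996% and 99.99% of the gene in replicates 1, 2 and 3. The leading Hmgcs1 isoform held 65.3%, 81.2% and 67.6% of the gene in replicates 1, 2 and 3. That of Scap held 50.4%, 84.2% and 77.4%, so that in replicate 1 its 2 isoforms were level at 5.90 and 5.81 FPKM. Insig2 divided between isoforms with different starts, the leading form with 75.9%, 71.5% and 53.8%. Fdps was the steadiest, with 96.9%, 92.2% and 94.1% in its leading form.

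**Figure D4:**
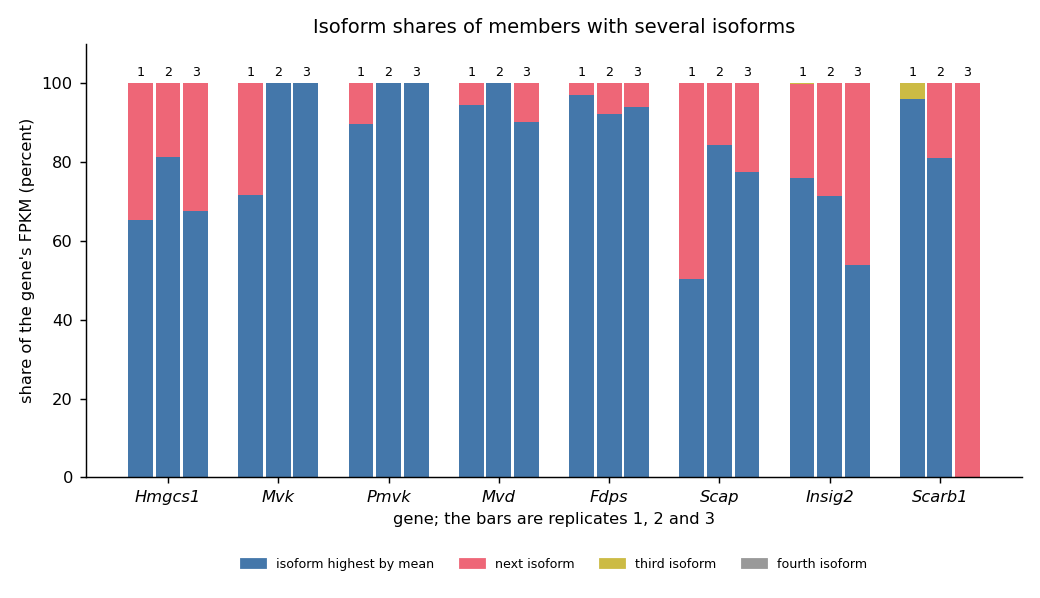
Share of each gene's FPKM (percent) held by each isoform, with 3 bars per gene for replicates 1, 2 and 3 and colours by the rank of the isoform's mean. The leading colour is the same in all bars except for Scarb1, whose longer isoform holds 96.1% in replicate 1 and 0.0137% in replicate 3.

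Promoters were given by RefSeq for 25 members, as 33 windows of 250 bases before and 50 after a start. Fdft1, Sqle, Soat2, Scarb1, Stard4 and Fdps had no entry. A gene was counted where any of its windows held the motif on either strand. For 23 of the 25 members, a window lay at the start of a listed isoform. The CCAAT box was in 22 of 25 members, against 41.1% of 27025 genes, and at 2 or more places in 12 of 25, against 13.3%. Among genes at 10 FPKM or more, it was in 18 of 20 members, against 43.1%, and at 2 or more places in 10 of 20, against 17.3%. Mvk held 5 such boxes, at -173, -120, -67, -50 and -14 from the start. Idi2, Acat2 and Scap were the members whose windows held none. In Dhcr7, Ggps1, Pmvk and Srebf1 the boxes lay only in windows at starts of no listed isoform.

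The sterol element CACNCCAC was in 3 of 25 members (Acat2, Hmgcs1 and Insig1), against 7.12% of genes, or in 3 of 20 at 10 FPKM or more, against 7.41%. In the runs shown above, that of Hmgcs1 starts at -136, between CCAAT boxes at -176 and -45, and that of Insig1 lies on the opposite strand at -9. The longer element, CACNCCAC with AT before it, was in 0 of 25 members, against 0.270% of genes, or in 0 of 20 at 10 FPKM or more, against 0.206%. The E-box CACGTG was in 5 of 25 members (Dhcr7, Hsd17b7, Insig1, Sc5d and Scap), against 8.09%, or in 4 of 20, against 12.3%. That of Dhcr7 lay in a window at the start of no listed isoform. GGGCGG, a box for Sp factors, was in 21 of 25, against 38.2%, but in 19 of 20 against 70.8% at 10 FPKM or more. CACNCCAC lies within the longer element, and the other motifs can share letters with its ends, so the motif counts are not fully separate. A match of letters says nothing of binding in these cells.

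**Figure D5:**
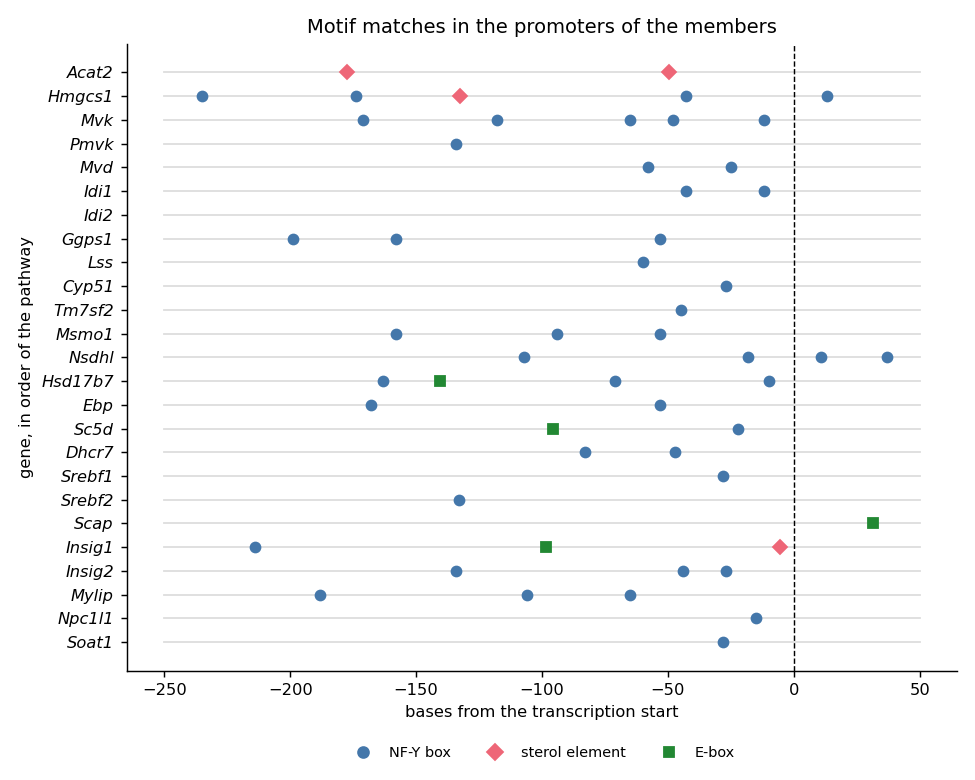
Positions of motif matches from 250 bases before to 50 bases after the transcription start for the 25 members with a promoter, in order of the pathway. For genes with several starts, the window with most matches is drawn; blue circles (NF-Y boxes) are on 22 of the 25 lines, and the line of Idi2 is empty.

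Genes around the pathway that are no members were described from lists of their own. Of 9 genes of SREBP processing and sterol sensing found among 10 listed, all 9 stood above 1 FPKM in each of the 3 files (median 22.3 ± 0.281 FPKM). The highest was Pgrmc1, a haem-binding partner of sterol enzymes, at 51.2 ± 4.89 FPKM. Of 23 genes of sterol transport and lipoprotein handling, 22 had a mean of 1 FPKM or more and 13 of 10 FPKM or more (median 12.6 ± 0.269 FPKM). The phospholipid carrier Stard10 (233 ± 4.48 FPKM) and the actin-binding Lima1 (88.5 ± 1.87 FPKM), known to help bring NPC1L1 back to the surface, were highest, and the endocytic receptor Lrp2 was listed at 0. Oxysterol and efflux genes were lower, with a median of 3.79 ± 0.866 FPKM over the 12 found among 13 listed. Of these, 10 had a mean of 1 FPKM or more, with the oxysterol receptor Nr1h2 (33.1 ± 5.35 FPKM) and the sterol hydroxylase Cyp27a1 (14.5 ± 3.56 FPKM) highest and the brain hydroxylase Cyp46a1 listed at 0.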

How the data were processed

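The series holds 3 labelled RNA-seq libraries of wild-type mouse distal colon in 1 group, with replicate numbers from the sample titles. FPKM values per RefSeq isoform, with confidence bounds, were deposited by the authors as Cufflinks tables, per the file headers; mean read coverage, a signal that the authors also deposited, was not used. The submitters' processing notes list Cufflinks 2.2.1, TopHat2 2.1.1 and Bowtie2 2.3.4.3. Whether counting used strand, and how multiply mapped reads were treated, are points not given in the sources used here. Those notes name GRCm39, but 97.9% of 23024 symbols, and all 31 members, had a start or end within 1000 bases of RefSeq on GRCm38.p6, so positions are given as GRCm38, counted from 1.

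Isoform FPKM were summed per symbol, with no rescaling, and rows were matched by isoform ID. The members and lists were chosen with earlier results of these data known. All 31 members are named, with the 2 highest genes of each other list (1 of them is not reported here) and the first in list order under 1 FPKM in every file; a few further marker genes at or near 0 were named after their values were seen, as were the pairs Hmgcs1 to Lss and Msmo1 to Hsd17b7. The squared standard error (upper bound less FPKM, over 2) divided by the FPKM is the FPKM worth of 1 fragment. The slope of its inverse, the fragments per FPKM, on length gave the depth, 8.81e+06 fragments in all. That fit was by Theil-Sen over single-isoform genes over 800 bases with up to 30 fragments. The chi-square test used these variances, after scaling the files to a common median ratio, with Benjamini-Hochberg adjustment at 0.05, and was checked on simulated data first. Limits at 0 are 3 fragments over the 3 files together and cover counting error only. Copies were sought with BLAST+ 2.17.0 (megablast, at least 100 bases at 97% identity or more) in GENCODE M21 transcripts, overlapping genes included. Of 31 members, 15 had a match, and not every match is named above. Alternatives are given in the closing section. Scripts ran in Python 3.11.15 with SciPy 1.17.1, pandas 2.3.3, matplotlib 3.10.9 and numpy 2.4.6.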

Additional observations from a re-analysis of the deposited data

How the results depend on the processing

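The counts of members at 1 FPKM or more (28) and at 10 FPKM or more (24) stayed within 1.5 times of these values under every alternative run except a threshold of 20 FPKM, which left 14. Rescaling each file to a common sum (TPM) is a change of unit and gave a median of 42.5 over the members and of 154, 25.8, 71.4, 82.7, 39.7 and 18.8 in the role groups in pathway order. In place of the median, the mean of log2(FPKM + 1) over the members, taken back to FPKM, was 17.2 FPKM. With a pseudocount of 0.1 that mean was 15.0 FPKM. The median over members at 1 FPKM or more was 19.3 FPKM. With the highest isoform alone, the median of the thiolase and synthase pair was 49.6 FPKM and that of the uptake group 4.80 FPKM, and Insig1 was 6.47 times as high as Insig2. With 80% in place of 50%, 4 members had a dominant isoform, and with the longer sterol element 0 promoters matched.

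Leaving out each replicate in turn gave a median of the members of 18.0 to 18.9 FPKM and of the mevalonate group of 10.9 to 11.7 FPKM. The lower bound of Idi1 over Idi2 was 183-fold without replicate 2, 196-fold without replicate 1 and 292-fold without replicate 3, since fewer fragments raise the limit. No member was called between files under any of the 7 alternatives. Over all genes tested, the 5 calls became 2 without replicate 1, 2 without replicate 2, 9 with isoform variances added and 14 with the sampling variance from the fitted depth. With the highest isoform alone, the levels of 6 of 31 members moved by more than 1 SD. The number of fragments limits Npc1l1 and Soat2 most. The alternative that takes sampling variances from the fitted depth, and the promoters of genes at 10 FPKM or more, were chosen after seeing the data. No paired analysis was possible because the series has 1 group.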

Other observations

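Genes that use the isoprenoids for other products were all transcribed. All 12 of that list stood above 1 FPKM in each file (median 9.43 ± 0.803 FPKM). The highest were Fnta, a subunit that some of the prenyltransferases share, at 25.9 ± 0.702 FPKM and Nus1, a subunit of the enzyme that makes dolichol precursors, at 25.4 ± 2.11 FPKM.

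Fatty acid synthesis genes, which SREBP also governs, ranged from 0.197 FPKM (Pnpla3) to 271 FPKM, with a median of 10.8 ± 1.22 FPKM over 14 genes. The stearoyl-CoA desaturase Scd2 stood at 271 ± 2.32 FPKM and the desaturase Fads2 at 118 ± 4.89 FPKM, and 12 of 14 had a mean of 1 FPKM or more.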
